A study of Mus musculus with 5 samples.

Results

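Vascular endothelial growth factors and angiopoietins are secreted ligands that bind receptor tyrosine kinases on endothelium. VEGF-A acts mainly through Kdr, with Flt1 as a tight-binding receptor that can act as a decoy, VEGF-B binds Flt1, and VEGF-C binds Flt4 on lymphatic endothelium as well as Kdr. Nrp1 is a co-receptor, Angpt1 activates the receptor Tek to keep vessels stable, and Angpt2 is a context-dependent partner or antagonist of Angpt1. In the heart this signalling links capillaries to the cells around them. The 10 genes Vegfa, Vegfb, Vegfc, Angpt1, Angpt2, Kdr, Flt1, Flt4, Nrp1 and Tek were taken by symbol from the 31053 features of the count tables, and all 10 were found. They were read in 28517 of 37138 retained cell barcodes, which fell into endothelial, mural, fibroblast and macrophage gates defined by marker UMIs (unique molecular identifiers, each marking a captured RNA molecule).

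The hearts came from mice in a model of the myocarditis that immune checkpoint inhibitors can cause. Control mice were Ctla4+/+Pdcd1-/- (4 mice, libraries 1 and 2) and disease mice were Ctla4+/-Pdcd1-/- (10 mice, libraries 3, 4 and 5), so both groups lack Pdcd1 and differ in 1 copy of Ctla4. The genotype labels of 2 samples read Pdcd2 and that of 1 reads Pdcd3, and the sort labels run from DRAQ5 to DRAQ9. The design text gives Pdcd1 and DRAQ5 throughout, and that reading was used. Digested hearts were pooled and live nucleated cells (DRAQ5+DAPI-) were sorted, so a library is a pool of cells and not an animal, and p-values measure the spread between pools. Ages are not given in the labels. No mouse with intact Pdcd1 was included.

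Depth ranged from 24991704 to 55053988 UMIs per library, with a median of 3336.5 to 4540 UMIs per retained barcode, and pairs of libraries shared 86 to 161 barcode sequences. Levels are given in CPM, the UMIs of a gene per 1e6 UMIs of the gate in one library. For libraries 1 to 5, the lymphocyte gate held 386, 26.6, 107, 596 and 473 CPM of Ctla4 and 537, 47.3, 171, 983 and 716 CPM of Pdcd1. The part of either gene that the alleles remove is not given in the labels, so these values do not check the genotypes. The gates held 12492 endothelial, 510 mural, 10764 fibroblast and 4751 macrophage barcodes. All 8 endothelial, 10 mural, 7 fibroblast and 8 macrophage markers were highest in their own gate, which these markers define. The endothelial list summed to 1641 to 2221 CPM in the mural gate, against 5719 to 6460 CPM in the endothelial gate and 59.0 to 124 CPM in fibroblasts. A list of 8 cardiomyocyte genes, for which no gate was set, summed to 864 to 1290 CPM in the endothelial gate and 38.4 to 73.2 CPM in fibroblasts. A gate of 4498 lymphocyte barcodes served as the background for genes that lymphocytes should lack. It took 7.04% and 5.53% of retained barcodes in control libraries 1 and 2, and 4.38%, 27.2% and 9.74% in disease libraries 3, 4 and 5.

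The first comparison asked which cells held each ligand and receptor. Among retained barcodes, Vegfa and Angpt1 were mostly fibroblast transcripts, and Kdr, Flt1 and Flt4 were mostly endothelial. The endothelial share of UMIs was 56.9% for Nrp1 (36.5 to 71.4% in single libraries) and 54.5% for Tek (45.7 to 63.5%). Of the 4 gates, the endothelial and mural ones held the highest Vegfc and Angpt2. No gate was set for cardiomyocytes, so the part of these genes in those cells is not given. Levels are given for libraries 1 and 2 (control) and then 3, 4 and 5 (disease). Differences between gates come from edgeR with libraries as blocks, over 14577 genes. Of 60 tests (10 genes in 6 pairs of gates), 51 had an adjusted p under 0.05. The background is high: 40.7% of all genes differed between endothelial and mural gates, 70.3% between endothelial and fibroblast, 72% between endothelial and macrophage, 45.2% between mural and fibroblast, 56.3% between mural and macrophage, and 73.3% between fibroblast and macrophage gates.

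Vegfa, the main driver of vessel growth and permeability, was highest in fibroblasts among the 4 gates, at 77.0 and 83.7 CPM in the control and 50.3, 65.5 and 64.1 CPM in the disease libraries. Mural barcodes had 46.9 and 32.8 and then 32.7, 44.8 and 62.9 CPM. Endothelial barcodes had 6.91 to 11.9 CPM and macrophages 4.49 to 12.9 CPM, against 1.72 to 5.91 CPM in lymphocytes. Fibroblasts exceeded mural barcodes by 0.77 on the log2 scale (SE 0.17, adjusted p = 0.000763), while endothelial barcodes and macrophages did not pass the threshold for a difference (endothelial minus macrophage -0.12, SE 0.16, adjusted p = 0.52, opposite in sign to their mean levels of 10.3 and 8.96 CPM). Of 5842 Vegfa UMIs in retained barcodes, 78.8% lay in the fibroblast gate and 7.24% in the endothelial gate. A small neutrophil gate of 16 to 52 barcodes per library, not compared further, held 34.9, 89.5, 0, 39.0 and 82.5 CPM in libraries 1 to 5, on at most 8 UMIs each.

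Angpt1, the Tek agonist, was more restricted. It reached 25.1 and 30.8 CPM in control fibroblasts and 41.5, 45.1 and 27.0 CPM in disease fibroblasts, and 93.7% of its 2337 UMIs lay there. The endothelial level was 0.695 to 1.36 CPM, within the lymphocyte range of 0.447 to 3.21 CPM, and macrophages were at 0.550 to 1.51 CPM. Mural barcodes had 1.17 to 13.2 CPM, with the highest value in library 5. Fibroblasts exceeded the mural gate by 2.89 on the log2 scale (SE 0.31), the closest of the other 3 gates. Without library 5, the difference between mural and endothelial barcodes was no longer past the threshold (adjusted p = 0.171, against 0.00502 with all libraries), nor was that between mural barcodes and macrophages (0.108 against 0.00135).

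Vegfc, a lymphatic growth factor, was measured in endothelial barcodes at 58.5 and 61.4 CPM in controls and at 45.3, 20.4 and 24.1 CPM in disease. The mural gate had 102 and 85.6 and then 76.3, 42.0 and 59.6 CPM, higher than the endothelial gate by 0.71 on the log2 scale (SE 0.18, adjusted p = 0.00279). Mural barcodes with 0 UMIs of the endothelial list held 9.73 ± 15.7 CPM (SD, n = 5), on 5 UMIs in all. Fibroblasts restricted in the same way held 16.1 ± 3.57 CPM. Fibroblasts had 11.5 to 21.7 CPM, and macrophages at most 2.24 CPM. Angpt2 was at 19.0 to 28.9 CPM in endothelial and 28.0 to 44.7 CPM in mural barcodes. Those 2 gates did not pass the threshold for a difference (-0.57, SE 0.23, adjusted p = 0.0542), and did so with a stricter gate (adjusted p = 0.0249) and without the filter on low counts (adjusted p = 0.0104). Fibroblasts had 4.57 to 10.8 CPM of Angpt2. Vegfb, a ligand of Flt1, had only 904 UMIs and no gate stood apart: the library ranges of all 4 gates overlapped, between 2.04 and 18.2 CPM, and of the 6 pairs of gates only endothelial against macrophage passed the threshold (-0.42, SE 0.17, adjusted p = 0.0309), which was lost without library 2 (0.0643).

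Kdr, the main signalling receptor for VEGF-A, was at 1269 and 1212 CPM in control and 982, 1091 and 986 CPM in disease endothelium. The mural gate had 211 to 328 CPM, and fibroblasts (9.26 to 18.4 CPM) and macrophages (10.5 to 24.7 CPM) overlapped the lymphocyte range of 4.28 to 17.0 CPM. Flt1 showed the same order, with 937 to 1021 CPM in endothelium, 492 to 634 CPM in the mural gate and 10.5 to 33.7 CPM in fibroblasts and macrophages, against 8.90 to 17.7 CPM in lymphocytes. The counts do not separate the soluble and membrane-bound forms of Flt1. Flt4, the VEGF-C receptor, was at 40.6 to 53.3 CPM in endothelium, 16.4 ± 3.74 CPM (SD, n = 5) in the mural gate and at most 1.80 CPM in fibroblasts and macrophages.

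Nrp1 and Tek were not restricted to endothelium. Nrp1 was at 823 to 968 CPM in endothelium, 284 to 485 CPM in the mural gate, 188 to 242 CPM in macrophages and 156 to 186 CPM in fibroblasts. Macrophages exceeded fibroblasts by 0.70 on the log2 scale (SE 0.10), while mural barcodes exceeded macrophages by 0.39 (SE 0.10, adjusted p = 0.00295), a difference of 0.02 with a stricter gate (adjusted p = 0.9) and not past the threshold without library 3 (0.152) or library 5 (0.0543) or without the filter on low counts (0.054). Lymphocytes are no background for Nrp1, since they held 111, 10.8, 40.7, 165 and 143 CPM in libraries 1 to 5. Tek was at 221 and 243 CPM in control and 285, 294 and 302 CPM in disease endothelium. Fibroblasts held 96.0 and 105 and then 107, 111 and 118 CPM of Tek, against 1.72 to 5.85 CPM in lymphocytes and 2.51 to 9.85 CPM in macrophages. The fibroblast gate accounted for 35.3% of the 20168 Tek UMIs. Mural and fibroblast gates did not pass the threshold for a difference in Tek (-0.26, SE 0.15, adjusted p = 0.188), but with a stricter gate the mural level was lower (-0.49, adjusted p = 0.0174).

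**Figure D1:**
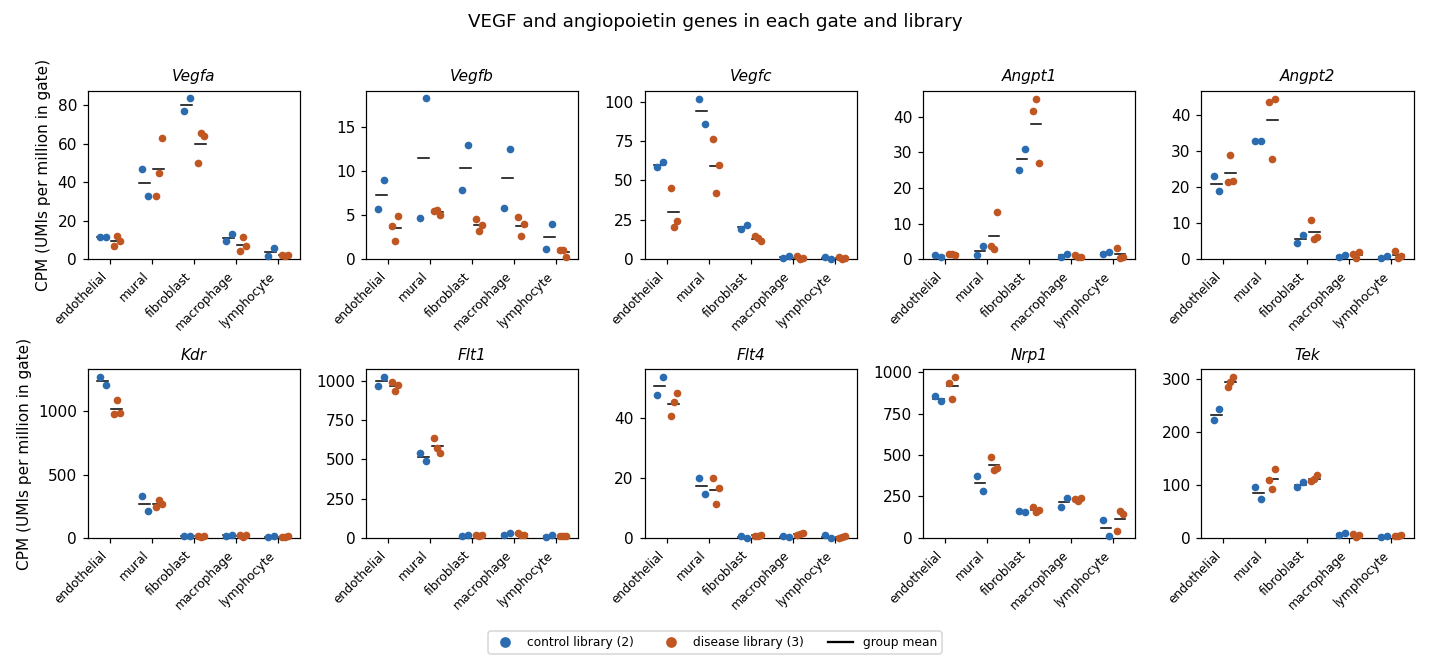
Each panel plots 1 gene, with its level in CPM on a linear axis that starts at 0 for 5 gates of barcodes. Points are the 2 control and 3 disease libraries and bars are group means. Vegfa and Angpt1 peak in fibroblasts (at 83.7 and 45.1 CPM), Kdr, Flt1, Flt4, Nrp1 and Tek in endothelium, and Tek stays near 100 CPM in fibroblasts (96.0 to 118 CPM).

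Shares of barcodes with a UMI gave the same picture at matched depth. Each barcode was thinned to 1000 UMIs, which left out 616 endothelial, 22 mural, 97 fibroblast, 166 macrophage and 65 lymphocyte barcodes. Median depths before thinning were 2323 to 3182 UMIs in endothelium, 5445 to 6201 in fibroblasts and 2993 to 4691 in lymphocytes. After thinning, Kdr was detected in 62.2% ± 3.86 (SD, n = 5) of endothelial and 1.08% ± 0.55 of lymphocyte barcodes, and in 86.9% and 3.38% without thinning. Tek was detected in 24.3% ± 3.24 of endothelial, 10.4% ± 0.82 of fibroblast and 0.40% ± 0.29 of lymphocyte barcodes, and in 51.2%, 41.6% and 1.31% without thinning. Vegfa reached 6.79% ± 1.41 of fibroblasts and 0.12% ± 0.13 of lymphocytes (28.1% and 1.06% without thinning). Nrp1 reached 21.8% ± 2.04 of macrophages and 16.6% ± 0.76 of fibroblasts. In unthinned endothelial barcodes, Kdr and Flt1 were detected together in 69.2 to 78.8%, both with Tek in 37.7 to 43.5%, and none of the 3 in 1.69 to 3.12%.

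In the mural gate, Kdr, Flt1 and Tek were far lower in barcodes without endothelial marker UMIs. Only 168 of 510 mural barcodes, 20 to 47 per library, had no UMI of the 8 endothelial markers. In those, Kdr was at 23.5 ± 24.2 CPM (SD, n = 5) against 269 ± 46.1 CPM in all mural barcodes, Flt1 at 45.4 ± 31.7 against 556 ± 52.7 CPM, and Tek at 17.3 ± 18.6 against 99.9 ± 20.9 CPM. Vegfc was at 9.73 ± 15.7 against 73.1 ± 23.2 CPM, on 5 UMIs in all. Nrp1 and Angpt2 kept more of their level: Nrp1 stood at 273 ± 115 against 394 ± 73.7 CPM and Angpt2 at 55.0 ± 30.3 against 36.4 ± 7.39 CPM. The endothelial phosphatase gene Ptprb and the receptor gene Tie1, neither of which was used to select these barcodes, were at 6.11% and 7.56% of their level in the whole mural gate. The restriction also keeps fewer UMIs per library, and the share of the mural levels that comes from doublets or free RNA was not tested.

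In fibroblasts the same restriction left 8294 of 10764 barcodes and gave another picture. Tek was at 106 ± 7.35 CPM against 107 ± 8.05 CPM in all fibroblasts, so 99.2% of its level stayed, and Nrp1 kept 98% (163 ± 12.1 against 166 ± 12.3 CPM). Vegfa kept 99.8%, Angpt1 105% and Vegfc 101%. Kdr and Flt1 were at 40.5% and 45.2% of their already low fibroblast level. Macrophages kept 98.3% of their Nrp1 (222 ± 22.5 against 226 ± 23.0 CPM) and 32.1% of their Kdr.

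**Figure D2:**
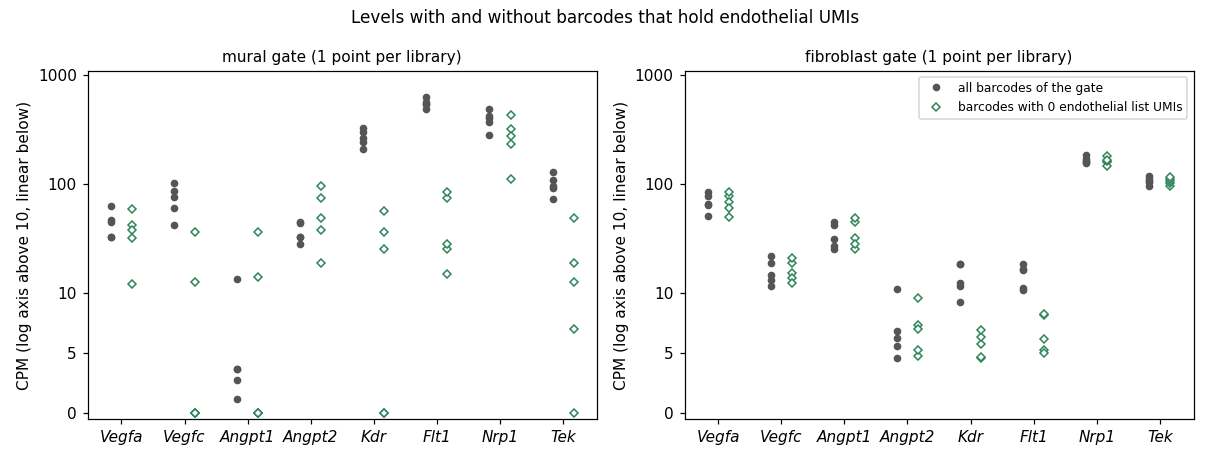
Levels in CPM of 8 genes in the mural gate and the fibroblast gate, on an axis that is logarithmic above 10 and linear below. Filled points are all barcodes of the gate and open diamonds are barcodes with 0 UMIs of the endothelial list, 1 point per library. Kdr, Flt1, Tek and Vegfc are lower in the open diamonds of the mural gate, while Tek and Nrp1 stay at 106 and 163 CPM on average in fibroblasts.

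Markers then divided the endothelial gate into capillary (11481 barcodes), arterial (270), venous (83), lymphatic (65) and endocardial (37) subsets. None of the 10 genes is a marker of a gate or a subset. Arterial and capillary subsets were tested in all 5 libraries, where 15.3% of 11480 genes differed, and 5 of the 10 genes did. Vegfc was 2.71 higher on the log2 scale in arterial endothelium (SE 0.14, adjusted p = 9.81e-80), at 438 and 397 CPM in control and 208, 84.6 and 111 CPM in disease libraries, against 46.3 and 50.9 and then 36.4, 16.6 and 18.8 CPM in capillaries. Every library had the higher level in the arterial subset. The test shares its estimate of spread across all genes, so p-values this small do not measure the spread of 5 libraries alone. Vegfa was higher by 1.15 (SE 0.41, adjusted p = 0.0367) at 18.0 to 28.9 against 6.5 to 11.2 CPM, but not past the threshold without library 3 (0.114) or library 5 (0.191), or without the filter on low counts (0.0573).

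Capillaries held more of 3 genes. Kdr was lower in arterial endothelium by 1.26 on the log2 scale (SE 0.09), at 420 to 710 CPM against 1019 to 1311 CPM. Nrp1 was lower by 0.92 (SE 0.09), at 376 to 591 against 843 to 987 CPM. Angpt2 was lower by 2.98 (SE 0.61, adjusted p = 1.74e-05), with 3 UMIs in 270 arterial barcodes and 18.8 to 31.0 CPM in capillaries. Flt1, Tek, Flt4, Vegfb and Angpt1 did not pass the threshold. For Flt1 and Tek the estimates were close to 0, at -0.09 (SE 0.09) and -0.05 (SE 0.11).

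The venous and lymphatic subsets had 8 to 26 barcodes per library, too few for the test, and their pooled values carry exact Poisson intervals that cover counting error only. Lymphatic barcodes held Flt4 at 901 CPM (95% interval 799 to 1012), at 737 to 1046 CPM in single libraries, against 35.5 to 46.8 CPM in capillaries. They held no Vegfc UMI, which allows up to 9.48 CPM at 3 UMIs. Flt1 (56.9 CPM, 33.7 to 89.9) and Nrp1 (34.8 CPM, 17.4 to 62.2) were low there, Kdr was at 645 CPM (559 to 739), and Angpt2 at 107 CPM (74.4 to 150). In single libraries, lymphatic Angpt2 was at 132, 137, 188, 0 and 21.5 CPM, with 8 barcodes in library 4 and 11 in library 5. Venous barcodes had the highest Flt1 and Tek of these 4 subsets, at 1365 to 1642 CPM and 398 to 523 CPM. Their Kdr was the lowest, at 301 to 401 CPM. Venous Vegfc was at 227 and 314 CPM in control and 116, 101 and 86.4 CPM in disease libraries, on 50 UMIs in all.

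**Figure D3:**
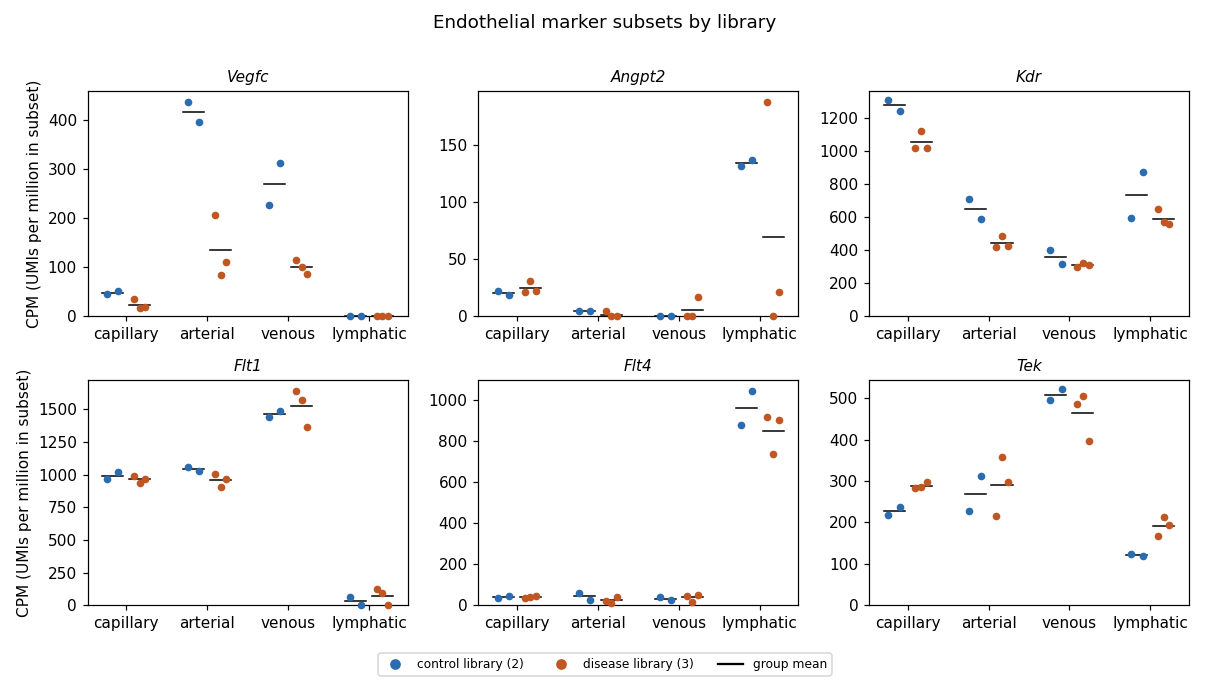
Levels in CPM (linear axes from 0) of 6 genes in 4 endothelial subsets named from markers, with 1 point per library and bars for group means. Vegfc is highest in arterial and venous barcodes, Kdr in capillaries, Flt1 and Tek in venous and Flt4 in lymphatic barcodes. Angpt2 is highest in lymphatic barcodes by group mean, but not in every library. Venous and lymphatic points rest on 8 to 26 barcodes each.

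Pericyte and smooth muscle subsets of the mural gate could be compared in the 2 control libraries alone, where both held at least 20 barcodes and 22.7% of 3830 genes differed. With 2 libraries, the p-values rest mostly on a spread estimated across all genes. In pericytes, Kdr was higher by 2.73 on the log2 scale (SE 0.32), Flt1 by 1.98 (SE 0.26), Nrp1 by 1.80 (SE 0.27) and Vegfc by 1.47 (SE 0.51, adjusted p = 0.0197). Tek did not pass the threshold (0.65, SE 0.44, adjusted p = 0.31), and the other 5 genes were below the filter on low counts. Tie1 and Ptprb, both endothelial genes, were also higher in pericytes, by 1.87 (SE 0.47) and 1.02 (SE 0.24). The part of endothelial RNA in these pericyte values was not tested.

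Within macrophages, monocyte-like barcodes were set against resident-like ones in libraries 1, 4 and 5, a comparison added after the data were seen, in which 24.5% of 9591 genes differed. Vegfa was higher in monocyte-like barcodes by 3.71 on the log2 scale (SE 0.42, adjusted p = 1.83e-05). Its levels were 50.8, 32.8 and 11.8 CPM in those libraries against 3.1, 3.1 and 1.6 CPM in resident-like barcodes, on 14, 15 and 4 UMIs. Lymphocytes held 1.72, 1.88 and 2.34 CPM in the same libraries. Flt1 was higher by 1.46 (SE 0.31, adjusted p = 0.00288), whereas Nrp1 was lower by 0.67 (SE 0.17, adjusted p = 0.00992). Vegfb was lower by 3.27 (SE 1.06, adjusted p = 0.0363) on 1 UMI in the monocyte-like barcodes of those libraries. Kdr differed by 0.12 (SE 0.41, adjusted p = 0.875).

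By a fixed rule, the genes with the most similar profile were ranked by Pearson's r of log2(CPM + 1) over 15 pooled subsets and gates, among 10646 genes. These are descriptions over subsets that share libraries. Kdr was closest to Cdh5 (r = 0.98), which is one of the endothelial markers, and Clic5 (0.98). Flt1 was closest to Samd12 (0.97) and Palmd (0.96), Flt4 to Cda (0.95) and Sema3f (0.94), Tek to Cped1 (0.96) and Galnt15 (0.96), and Nrp1 to Yrdc (0.91) and Tmcc3 (0.90). Among ligands, Vegfc was closest to Eogt (0.96) and Epha4 (0.94), Angpt1 to Ccdc80 (0.93) and Fkbp11 (0.92), Angpt2 to Rab11fip2 (0.82) and Vwa8 (0.81), Vegfa to Nrk (0.80) and Ddr2 (0.79), and Vegfb to Fam118a (0.90) and Tspyl2 (0.86).

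The second comparison set disease against control within each gate. Of the 10 genes, Vegfb and Vegfc were lower in disease fibroblasts and no other test passed an adjusted p of 0.05. In fibroblasts, 12.8% of 13545 genes were called, nearly all of them lower in disease (12.5% lower, 0.369% higher). With 9 genes tested, 2 calls are too few to be told apart from that background. No gene of the 10 was called in endothelium (background 11.9% of 12487 genes), in the mural gate (8% of 7139) or in macrophages (6.61% of 11315). At an unadjusted p under 0.05 there were 4 of 10 in endothelium (25.1% of all genes), 1 of 8 in the mural gate (20.4%), 3 of 9 in fibroblasts (28%) and 1 of 6 in macrophages (18.2%). DESeq2 called Tek in endothelium (13% of all genes with an adjusted p), the same 2 genes in fibroblasts (14.2%), and 0 in the mural gate (3.45%) and in macrophages (6.84%). Calls over all genes were mostly lower in disease in the mural gate too (7.66% lower, 0.336% higher). Groups did not overlap for 5 of 10 genes in endothelium (2 above, 3 below the controls), where 49.8% of all genes did not (26% above, 23.9% below). The mural gate had 2 above and 1 below of 8 (17.8% and 21.2% of all genes), fibroblasts 1 above and 3 below of 9 (25.2% and 25%, together 50.2%), and macrophages 0 above and 1 below of 6 (13.6% and 22.8%). Medians of the log2 fold change over the genes tested were -0.16, 0.19, -0.06 and -0.16 in these gates, against 0.01, 0.03, -0.01 and 0.02 over all genes. The same control libraries enter all 4 comparisons. Within a summed gate, a change in the mix of its subsets and a change of RNA per cell cannot be told apart. Fibroblast barcodes with activation markers were 1.61% and 1.66% of that gate in control and 3.71%, 4.19% and 5.14% in disease libraries, without overlap. Monocyte-like barcodes were 1.75% and 2.14% of the macrophage gate in control and 2.20%, 8.96% and 3.60% in disease libraries, also without overlap.

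Vegfb in fibroblasts stood at 7.80 and 12.9 CPM in control and 4.50, 3.14 and 3.86 CPM in disease libraries. The groups did not overlap, and library 2 was the highest. Activated barcodes held 7.20 and 5.64 against 3.88, 2.49 and 1.97 CPM of Vegfb, on 1 to 3 UMIs each. The fold change was -1.45 on the log2 scale (SE 0.27, adjusted p = 0.023), and it was not past the threshold without library 2 (-1.10, adjusted p = 0.139) or without library 5 (-1.48, adjusted p = 0.11). Vegfb was at 5.65 and 8.92 and then 3.70, 2.04 and 4.90 CPM in endothelium (-1.04, SE 0.38, adjusted p = 0.17). Macrophages had 5.80 and 12.5 and then 4.77, 2.67 and 3.99 CPM (-1.12, SE 0.39, adjusted p = 0.187). Lymphocytes, the background gate, had 1.15 and 3.94 and then 1.07, 1.07 and 0.293 CPM, on 1 to 12 UMIs each. The groups were not tested in that gate.

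Vegfc in fibroblasts was at 18.9 and 21.7 CPM in control and 14.6, 13.1 and 11.5 CPM in disease libraries, again without overlap. Activated barcodes held 19.2 and 5.64 against 21.3, 8.72 and 18.8 CPM of Vegfc, on 1 to 19 UMIs each. Its fold change of -0.67 (SE 0.14, adjusted p = 0.036) was past the threshold in the fits with other filters and gates. It was not past it without library 1 (adjusted p = 0.115), 2 (0.209), 4 (0.0532) or 5 (0.131), nor in barcodes with no endothelial UMI (-0.58, adjusted p = 0.051). The endothelial values of 58.5 and 61.4 against 45.3, 20.4 and 24.1 CPM gave -1.04 (SE 0.35, adjusted p = 0.139). Library 3 lay nearest to the controls, and without it the estimate was -1.50 (adjusted p = 0.00457). The mural estimate was -0.64 (SE 0.27, adjusted p = 0.21).

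A fit added after the data were seen looked at the arterial subset alone, where 7.84% of 3915 genes were called. Arterial Vegfc was lower in disease by 1.60 on the log2 scale (SE 0.32, adjusted p = 0.0134), with levels of 438 and 397 against 208, 84.6 and 111 CPM. The groups did not overlap, as for 20.1% of genes in this direction. It was lost without library 1 (adjusted p = 0.137), 2 (0.173) or 5 (0.104), and each library held 36 to 73 arterial barcodes. Capillary Vegfc gave -1.07 (SE 0.35, adjusted p = 0.128), where 12.2% of 12234 genes were called, and the difference between the 2 subsets was not tested.

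No receptor passed the threshold in any gate. Endothelial Kdr was at 1269 and 1212 against 982, 1091 and 986 CPM, without overlap, and the estimate of -0.34 (SE 0.10) did not pass the threshold (adjusted p = 0.0899). It did so without library 4 (-0.39, adjusted p = 0.0477). Endothelial Tek was higher in every disease library, at 285, 294 and 302 against 221 and 243 CPM, with an estimate of 0.29 (SE 0.09, adjusted p = 0.117). DESeq2 gave an adjusted p of 0.042 for it. Flt1 (-0.09, SE 0.09), Nrp1 (0.07, SE 0.11) and Flt4 (-0.23, SE 0.11) had overlapping groups in endothelium. In the mural gate, Nrp1 was at 374 and 284 against 485, 408 and 421 CPM (0.40, SE 0.19, adjusted p = 0.277) and Flt1 at 539 and 492 against 634, 573 and 540 CPM (0.17, SE 0.16, adjusted p = 0.616), both without overlap. The endothelial list, too, summed higher in every disease library of that gate (2038 to 2221 CPM) than in the controls (1641 to 1838 CPM), and so it did in the endothelial gate itself (6185 to 6460 against 5719 to 5742 CPM), where Tek lay above the controls. In mural barcodes with 0 endothelial UMIs, Nrp1 gave 0.88 (SE 0.40, adjusted p = 0.32) and Flt1 was below the filter on low counts. Fibroblast Tek was at 96.0 and 105 against 107, 111 and 118 CPM, without overlap (0.12, SE 0.10, adjusted p = 0.503). Fibroblast Vegfa was at 77.0 and 83.7 against 50.3, 65.5 and 64.1 CPM, with an estimate of -0.46 (SE 0.15) that did not pass the threshold (adjusted p = 0.112).

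Angpt1 in fibroblasts (0.40, SE 0.24, adjusted p = 0.329) and Angpt2 in endothelium (0.13, SE 0.18, adjusted p = 0.697) had overlapping groups. Angpt1 and Vegfb in the mural gate, Flt4 in fibroblasts, and Vegfc, Angpt1, Angpt2 and Flt4 in macrophages were below the filter on low counts. Whether a disease effect differed between gates was tested for all 6 pairs of gates. None of the 60 interaction tests by edgeR passed the threshold, and 4 had an unadjusted p under 0.05 (5.83% of such tests over all genes), all of them for Flt4 (lowest adjusted p = 0.393). Of all genes, 0% passed for endothelial against mural, 0.0398% for endothelial against fibroblast, 0.113% for endothelial against macrophage, 0.0133% for mural against fibroblast, 0.0332% for mural against macrophage and 0.279% for fibroblast against macrophage gates.

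**Figure D4:**
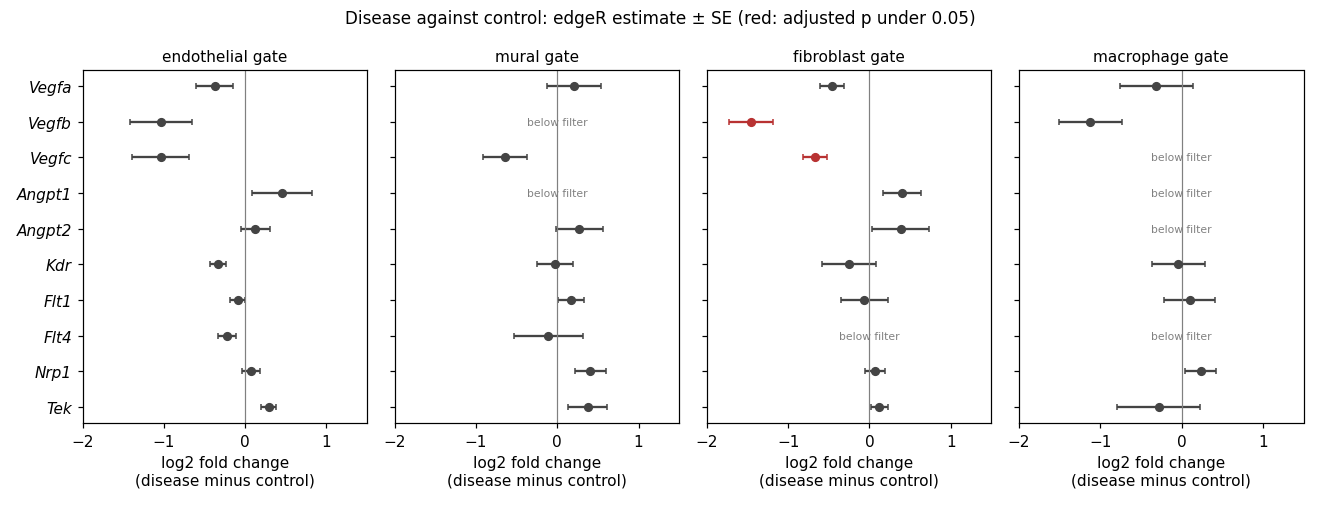
Log2 fold changes (disease minus control) from edgeR with their standard errors, for the 10 genes in 4 gates. Red points have an adjusted p under 0.05, which are Vegfb (-1.45) and Vegfc (-0.67) in fibroblasts, and genes below the filter on low counts are named as such.

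Estimates of the GC-rich genes rose when a GC trend over all genes was removed. The chemistry reads the 5-prime end of transcripts. Over the first 300 nucleotides (median over the annotated transcripts), GC percent was 77.3 for Vegfb, 66.7 for Kdr, 65.0 for Vegfc, 64.7 for Flt1, 57.7 for Vegfa, 54.7 for Nrp1, 53.0 for Angpt2, 52.7 for Flt4, 51.5 for Tek and 41.8 for Angpt1, against a median of 56.3 over the genes tested. When a smooth GC trend across all genes was taken out of the fit, fibroblast Vegfb was at -0.97 (adjusted p = 0.0474) and fibroblast Vegfc at -0.36 (adjusted p = 0.201). Endothelial Kdr moved from -0.34 to -0.01 and Tek from 0.29 to 0.20. Flt1 changed sign in endothelium (-0.09 to 0.17) and fibroblasts (-0.06 to 0.23). Kdr did so in fibroblasts (-0.25 to 0.12), mural barcodes (-0.03 to 0.37) and macrophages (-0.04 to 0.26). Fibroblast Nrp1 went from 0.07 to -0.01 and fibroblast Vegfa from -0.46 to -0.50. Endothelial Vegfc moved from -1.04 to -0.79 and arterial Vegfc from -1.60 to -1.15 (adjusted p = 0.0456).

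**Figure D5:**
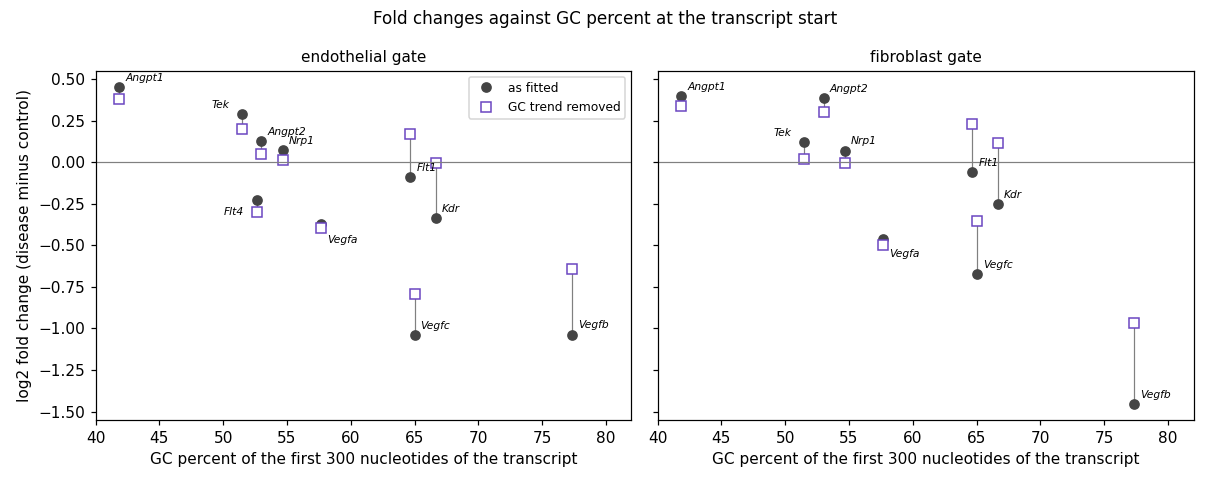
Log2 fold change (disease minus control) against GC percent at the transcript start (300 nucleotides), for the genes tested in the endothelial and fibroblast gates. Filled points are the estimates as fitted and open squares those after a GC trend over all genes was removed. The GC-rich genes Vegfb, Vegfc, Kdr and Flt1 move up, and those under 60% GC move by at most 0.10.

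The promoters differ in the same property. RefSeq start sites on GRCm38.p6 were matched for 8 of the 10 genes. The 250 bases upstream of the start are shown 5′ to 3′ on the gene's strand for both genes called in fibroblasts, for Flt1 as a GC-rich receptor, and for Tek as the least GC-rich receptor. Capitals mark the GC box GGGCGG on either strand (as GGGCGG or CCGCCC, overlapping matches counted), which 32.7% of 32851 upstream windows of this length hold. The windows are chr19:6987652-6987901 on the minus strand for Vegfb (76.4% GC, 4 matches), chr8:54077282-54077531 on the plus strand for Vegfc (71.6% GC, 2 matches), chr5:147726012-147726261 on the minus strand for Flt1 (70.4% GC, 3 matches) and chr4:94739039-94739288 on the plus strand for Tek (51.2% GC, 0 matches). No annotated exon overlaps them.
Vegfb: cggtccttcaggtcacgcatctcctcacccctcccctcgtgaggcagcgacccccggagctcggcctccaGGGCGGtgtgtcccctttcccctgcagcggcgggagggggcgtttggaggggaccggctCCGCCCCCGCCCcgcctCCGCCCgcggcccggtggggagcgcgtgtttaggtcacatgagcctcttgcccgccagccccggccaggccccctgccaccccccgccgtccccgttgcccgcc
Vegfc: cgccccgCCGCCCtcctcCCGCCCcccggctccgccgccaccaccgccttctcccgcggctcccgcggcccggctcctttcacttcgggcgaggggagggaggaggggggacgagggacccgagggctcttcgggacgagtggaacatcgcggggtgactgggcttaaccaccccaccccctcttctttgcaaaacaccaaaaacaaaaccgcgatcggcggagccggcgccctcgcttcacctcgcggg
Flt1: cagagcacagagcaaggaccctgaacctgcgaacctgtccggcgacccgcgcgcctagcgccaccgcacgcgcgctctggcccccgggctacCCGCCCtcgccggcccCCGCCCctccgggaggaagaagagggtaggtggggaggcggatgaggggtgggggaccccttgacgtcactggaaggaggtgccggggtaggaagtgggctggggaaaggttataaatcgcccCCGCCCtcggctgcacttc
Tek: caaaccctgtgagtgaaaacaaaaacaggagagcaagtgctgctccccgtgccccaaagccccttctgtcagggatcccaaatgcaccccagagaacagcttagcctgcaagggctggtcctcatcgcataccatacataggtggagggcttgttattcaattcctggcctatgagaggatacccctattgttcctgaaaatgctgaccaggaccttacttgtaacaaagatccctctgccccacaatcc

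The letters ACGTG, the core of hypoxia response elements, are in none of these 4 windows on either strand. Over the 9 start sites of the 8 genes, they are in 1 window, at the downstream one of 2 start sites of Vegfa (chr17:46025164-46025413, minus strand), which overlaps 9 annotated exons. Of all windows 16.6% hold them. A match or its absence describes these letters only.

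A wider list of 42 genes of the pathway gave the surroundings of these results. In endothelium 37 were tested, of which 1 was higher and 5 lower in disease, with a median log2 fold change of 0.12. Over all endothelial genes 0.376% were higher and 11.5% lower, with a median of 0.01, so the share that was lower is near the background. Without overlap, 14 of the 37 lay above the controls and 6 below (26% and 23.9% of all genes), the opposite balance to the calls. Apln, a peptide induced by VEGF, was at 21.7 and 22.4 against 10.1, 8.90 and 9.91 CPM (-1.23, SE 0.12, adjusted p = 0.00228). Vhl, which marks hypoxia-inducible factors for degradation, gave -1.39 (SE 0.16, adjusted p = 0.00364) and Hif1a itself -0.49 (SE 0.09, adjusted p = 0.0241). Vash1, an endothelial inhibitor of vessel growth, gave -1.42 (SE 0.28, adjusted p = 0.0258), and the co-receptor Nrp2 -0.46 (SE 0.09, adjusted p = 0.0281). Pgf, a ligand of Flt1, was at 6.67 and 5.56 against 14.9, 16.1 and 11.1 CPM and so higher (1.13, SE 0.23, adjusted p = 0.0278). Apln and Vhl stayed past the threshold without any single library. Hif1a, Vash1 and Nrp2 were lost without library 1, 2 or 5 (adjusted p = 0.051 to 0.164), and Pgf without library 1, 2, 3 or 4 (0.0507 to 0.182).

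Fibroblasts had 39 of the list tested, with 5 lower, none higher and a median of -0.01, a share at the background (12.5% of all fibroblast genes lower, 0.369% higher, median -0.01). Without overlap, 5 lay above and 6 below the controls (25.2% and 25% of all genes). The 5 called were Vhl (-1.20, SE 0.15, adjusted p = 0.00612), Vash1 (-1.55, SE 0.20, adjusted p = 0.00665), the adaptor Nck1 (-0.68, SE 0.10, adjusted p = 0.00943), Hif1a (-0.65, SE 0.12, adjusted p = 0.0231) and Adamts3, a protease that activates VEGF-C (-1.47, SE 0.28, adjusted p = 0.0262). All 5 were lost without library 2 (adjusted p = 0.0595 to 0.148), Adamts3 and Hif1a also without library 1 (0.145 and 0.14), and Adamts3, Hif1a and Nck1 without library 5 (0.0638 to 0.0996). Adamts3 was at 6.66 and 6.80 CPM in control and 3.38, 2.35 and 1.82 CPM in disease fibroblasts. Its partner Ccbe1 was at 23.6 and 32.9 against 29.4, 25.4 and 17.9 CPM, with overlap. Other ligands of these receptors also lay in fibroblasts, Pgf at 76.9 to 103 CPM and Vegfd at 20.8 to 46.4 CPM, against at most 1.60 and 0.39 CPM in macrophages. The mural gate had 26 tested and 2 higher, Epas1, a hypoxia-inducible factor (0.68, SE 0.15, adjusted p = 0.0238), and Dusp6, a feedback phosphatase of the ERK pathway (0.91, SE 0.23, adjusted p = 0.0438), where 0.336% of all genes were higher. Of the 26, 10 lay above the controls without overlap and 1 below (17.8% and 21.2% of all genes). Both were lost without library 1, 2 or 5 (adjusted p = 0.0957 to 0.293), and DESeq2 called Epas1 alone (Dusp6 adjusted p = 0.215). Dusp6 was also not past the threshold with doublets kept, a higher mitochondrial maximum, a stricter gate or the GC trend removed (0.065 to 0.172). In mural barcodes with 0 endothelial UMIs, Epas1 gave 0.37 (adjusted p = 0.686) and Dusp6 was below the filter on low counts. In macrophages none of 25 was called by edgeR and 1 by DESeq2 (Thbs1, a matrix inhibitor of vessel growth), 5 had an unadjusted p under 0.05, and the lowest adjusted p was 0.0729. Over all macrophage genes, edgeR called 6.61% and DESeq2 6.84%, and 18.2% had an unadjusted p under 0.05. Without overlap, 4 of the 25 lay above and 2 below the controls (13.6% and 22.8% of all genes).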

How the data were processed

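Per the file headers, Cell Ranger 3.1.0 made the deposited tables, whose values are unnormalized UMI counts for each gene and barcode. The submitters' processing notes list Cell Ranger 3 and Seurat 3, and the builds GRCh38 and mm10 without saying which was used for what. No other alignment setting is given in the sources used here, and symbols were used as the files give them. All 10 genes and the gene lists were chosen with earlier results of these data known.

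Retained barcodes had 500 UMIs or more, 200 genes or more, and a mitochondrial share of 10% or less. Doublets were called per library with Scrublet in scanpy 1.11.5 at an expected 0.8% per 1000 barcodes. In control library 2 the automatic threshold marked 4 barcodes, and the median threshold of the other libraries was used there. A barcode entered a gate with at least 3 UMIs over at least 2 genes of one marker list and 3 times the UMIs of any other list. Subsets needed 2 UMIs. UMIs were summed per gate and library and tested in R 4.3.3 by the quasi-likelihood test of edgeR 4.0.16, after TMM scaling and filterByExpr, with library blocks between gates and between subsets, each subset then holding at least 20 barcodes per library. Benjamini-Hochberg adjustment ran over all genes tested, and 0.05 was the threshold. A standard error is the fold change on the log2 scale divided by the root of F. CPM use plain gate totals. The fits were tested on simulated data first. DESeq2 1.42.0 was an alternative. GC percent used GENCODE M21 transcripts, and upstream sequences came from RefSeq. Named genes were all 10, the genes of the 42-gene list with an adjusted p under 0.05 (at most 6 per gate), and the 2 most similar genes with at least 20 CPM in 1 profile. Levels of other list genes were picked after their values were seen. Intervals are at 95%.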

Additional observations from a re-analysis of the deposited data

How the results depend on the processing

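The counts of called genes in the whole gates moved by over 1.5 times in the mural gate with DESeq2 (307), without the filter on low counts (978) and in barcodes with 0 endothelial UMIs (88), against 571, and in macrophages without the filter (1260 against 748). Leaving out one library gave 795 to 1521 calls in endothelium (1489 with all), 217 to 666 in the mural gate, 783 to 1837 in fibroblasts (1739) and 198 to 1048 in macrophages. The calls of fibroblast Vegfb and Vegfc rested on single control and disease libraries, as given above, and Vegfc also on the GC setting; for the latter the cause was not tested. Between gates, 49 to 52 of 60 tests passed under the alternatives, between arterial and capillary endothelium 4 to 5 of 10, between pericytes and smooth muscle 4 of 5, and none of the 60 interactions. No result for the 10 genes that was past the threshold reversed its direction under an alternative that was run. No paired analysis of control and disease libraries was run, because the labels give no pairing between them. Pooled hearts, 2 against 3 libraries, and levels of 2.04 to 18.2 CPM for Vegfb limit the precision. Sex, batch and collection day are not given in the labels.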
